A study of Rattus norvegicus with 6 samples.

Results

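The superoxide dismutase genes and the antioxidant genes of the transcription factor NRF2 were examined in cultured neonatal rat cardiac fibroblasts (NRCFs). The group held 10 genes, Sod1, Sod2, Sod3, Nfe2l2, Hmox1, Nqo1, Gclc, Gclm, Txnrd1 and Srxn1, found by symbol among the 21857 symbols of the count tables. They were chosen by their difference between the groups in these same libraries, and in particular for the contrast between Sod2 and the NRF2 targets, so their differences are given as a description without a test. RNA-seq was performed on 6 libraries. The cells came from hearts of rats killed within 3 days of birth and received either an empty plasmid (Vector, 3 libraries with the genotype label WT) or a plasmid carrying rat FTO, an m6A demethylase (3 libraries with the genotype label FTO overexpression), and were collected 48 h after transfection. The strain is labelled Noway, while the series names Sprague-Dawley rats. Separate cultures or animals are not named for the replicates, so errors describe the spread between libraries, which may be technical.

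Libraries held 13178952 to 17857999 counted reads. Fto, the gene that the plasmid was meant to raise, was at 87.8, 89.6 and 87.4 CPM (counts scaled to library size) in the Vector libraries and at 93.2, 90.8 and 92.9 CPM in those labelled FTO. The difference was 0.06 on the log2 scale (SE 0.0468, adjusted p = 0.239 by edgeR), so no change of Fto was detected and the second group is called by its label. Of the fibroblast markers, 11 of 11 were detected, with a summed level of 58100 to 59100 CPM in Vector and 36100 to 38700 CPM in the libraries labelled FTO. They did not move as one, with 6 called lower, among them Col1a1 (25809 to 8268 CPM) and Col3a1 (10699 to 3338 CPM), which make up most of the sum in Vector, and 4 called higher, among them Dcn (47.01 to 5611 CPM) and Lum (48.7 to 432 CPM). Macrophage markers were also present, at 1810 to 1860 CPM in Vector and 301 to 338 CPM in the libraries labelled FTO, with 11 of 12 called lower and C1qb and C1qc at 3 counts or fewer in each library labelled FTO. Cardiomyocyte markers summed to 1560 to 1600 CPM and 2410 to 2480 CPM, with 9 of 10 called higher. The sums of endothelial markers were 33.7 to 36.4 against 57.7 to 62.2 CPM (4 called higher and 1 lower), those of mural markers 1120.0 to 1140.0 against 754 to 792 CPM (3 called higher and 4 lower, from -3.91 to 4.89 on the log2 scale), those of epithelial and mesothelial markers 27.9 to 29.5 against 121 to 131 CPM (4 higher and 1 lower), and those of Schwann and neural markers 31.2 to 34.2 against 26.9 to 28.8 CPM (0 higher and 3 lower). Cldn5 (endothelial) and Epcam (epithelial) had 3 counts or fewer in each of the 6 libraries. In such bulk RNA, fewer cells of a type and less RNA per cell cannot be told apart, and the part of these shifts in the results below was not tested.

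Superoxide dismutases turn superoxide into hydrogen peroxide. SOD1 works in the cytosol and SOD3 outside the cell, both with copper and zinc, while SOD2 works in the mitochondrial matrix with manganese, and its gene is a known target of NF-κB in inflamed cells. NRF2, encoded by Nfe2l2, is held at a low level by KEAP1 and, once released by oxidants or electrophiles, binds antioxidant response elements (AREs) and drives genes for glutathione synthesis, thioredoxin reduction, quinone reduction and heme breakdown. In cardiac fibroblasts, these enzymes limit the oxidants that accompany inflammation and hypoxia.

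Windows from 250 bases before to 50 bases after a start site were taken from RefSeq (build GRCr8). They were used to show where the core letters of the DNA element bound by NRF2 are found near the members. The processing notes of the data name another build, rn6, and no reads were placed on these windows. Windows were found for 8 of the 10 members, not for Sod3 and Hmox1. The core of the ARE, TGACNNNGC, was searched on both strands and was found in 12.1% of 33469 promoters. Among the members it was found once each in Sod2, Nfe2l2, Gclm and in 1 of the 2 Txnrd1 windows, and Nqo1, Gclc, Srxn1 and Sod1 did not hold these letters here. Only this spelling in these windows was searched, so elements further away or of another spelling would be missed. The Srxn1 window, for example, holds tgagtcagc, which differs from the core only by G in place of C. The sequences shown are those of the 3 members with a match upstream of the start site, and capitals mark the match. They are printed 5′ to 3′ in the direction of the gene, for Sod2 (chr1:50050119-50050418, minus strand), Gclm (chr2:213031885-213032184, plus strand) and Txnrd1 (chr7:22755855-22756154, minus strand).
Sod2: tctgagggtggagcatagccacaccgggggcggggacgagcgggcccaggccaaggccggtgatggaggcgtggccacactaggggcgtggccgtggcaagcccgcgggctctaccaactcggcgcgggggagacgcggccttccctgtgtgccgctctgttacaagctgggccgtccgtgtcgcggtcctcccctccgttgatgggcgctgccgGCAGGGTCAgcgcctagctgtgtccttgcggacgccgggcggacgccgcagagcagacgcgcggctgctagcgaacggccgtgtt
Gclm: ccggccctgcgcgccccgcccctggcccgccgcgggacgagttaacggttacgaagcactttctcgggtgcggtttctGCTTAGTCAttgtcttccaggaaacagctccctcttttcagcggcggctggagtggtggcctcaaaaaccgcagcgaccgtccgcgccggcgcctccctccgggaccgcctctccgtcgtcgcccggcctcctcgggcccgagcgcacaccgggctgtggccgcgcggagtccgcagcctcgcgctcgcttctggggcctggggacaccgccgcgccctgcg
Txnrd1: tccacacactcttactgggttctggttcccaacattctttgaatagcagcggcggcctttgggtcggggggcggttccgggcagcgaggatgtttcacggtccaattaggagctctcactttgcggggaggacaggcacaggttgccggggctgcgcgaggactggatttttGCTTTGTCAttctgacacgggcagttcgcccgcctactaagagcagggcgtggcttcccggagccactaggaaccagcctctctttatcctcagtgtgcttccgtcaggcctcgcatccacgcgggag
The match began at position -35 from the start site in Sod2, at -172 in Gclm and at -78 in Txnrd1, on the opposite strand in each of the 3. In Nfe2l2 it began at position 38, inside the transcript. A loose form of the NF-κB site (GGG and CC with any 5 bases between them, either strand, overlaps counted) was found in 47.3% of all promoters and gave 4 matches in Sod2, 2 in Sod1, 2 in Gclc, 1 each in Nqo1, Gclm and Txnrd1, and none in Nfe2l2 or Srxn1. The fixed letters of the loose form are all G or C. These bases made up 72% of the Sod2 window and 76.7% of the Gclc window, against a median of 51.7% over all promoters. Most fixed letters of the ARE core are G or C as well. Of the other windows with that core, Gclm was at 72%, Nfe2l2 at 68% and Txnrd1 at 59.7%. Both matches in Gclc are the same stretch at position 19, read on either strand. The full NF-κB consensus, added after the loose form was seen to be so common, was found in 4.18% of all promoters and in 0 of these windows. A match is a description of letters and not of binding. The lack of a match in these windows says nothing of sites elsewhere in or near the genes.

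Each of the 10 members was higher in the libraries labelled FTO, and the sizes ran from 1.21-fold for Gclm to 28.9-fold for Sod2. In each, all 3 libraries labelled FTO lay above all 3 Vector libraries, which held in the same direction for 35.5% of the 12941 genes tested. All 10 had an adjusted p-value under 0.05, as had 65.9% of the genes tested in either direction and 33.2% in the higher direction. At the threshold of the study, a rise of 1 or more on the log2 scale with an unadjusted p-value under 0.05, 3 of 10 passed (Sod2, Nqo1 and Hmox1), against 10.4% of the genes tested. Nothing is read from these counts, since the choice of the members used this contrast. The median log2 fold change was 0.70 over the 10 members and 0.00 over all genes tested.

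**Figure D1:**
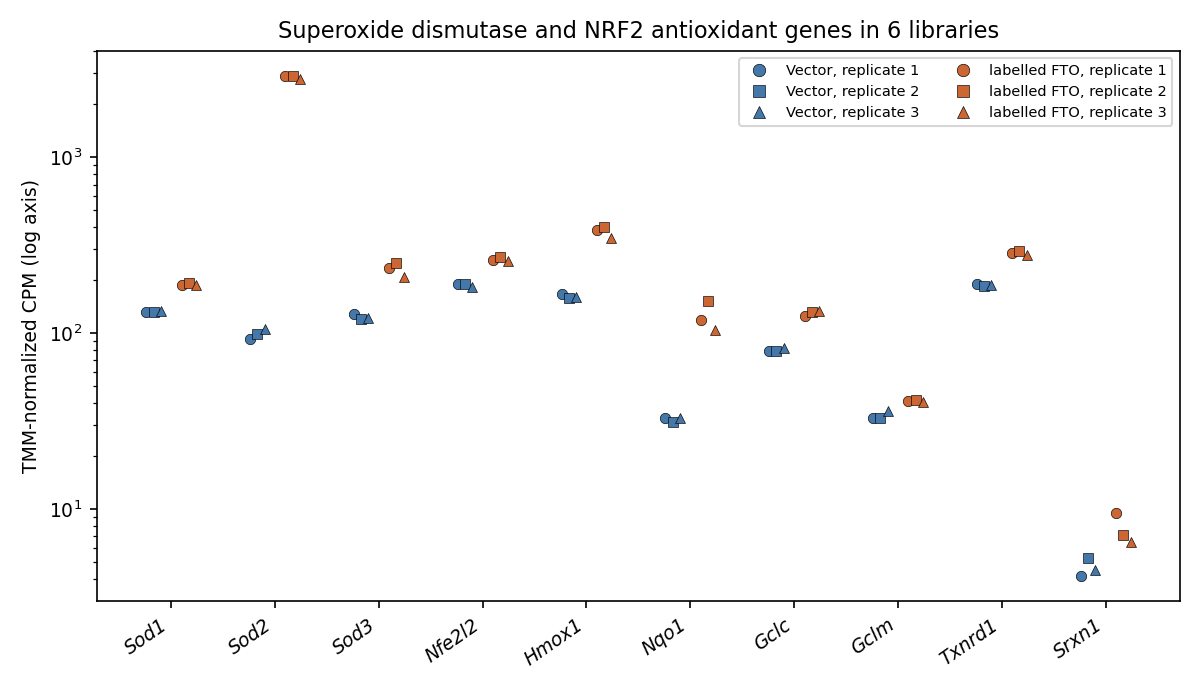
TMM-normalized CPM (log axis) of the 10 genes in each library; circles, squares and triangles are replicates 1, 2 and 3, blue Vector and orange the libraries labelled FTO. Sod2 moved from 92.5 to 106 CPM in Vector to 2768 to 2907 CPM, whereas the groups of Gclm lay close together at 32.8 to 36.1 and 40.7 to 41.5 CPM.

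Among the dismutases, the difference was far larger in Sod2 than in the others. Sod2, the mitochondrial enzyme, was at 92.5, 98.8 and 106 CPM in Vector (replicates 1, 2 and 3, the order used throughout) and at 2907, 2906 and 2768 CPM in the libraries labelled FTO. The libraries within each group lay close together, and the lowest library labelled FTO was 26.2-fold above the highest Vector library. The means were 99.0 ± 6.57 and 2860.5 ± 79.9 CPM (SD, n = 3), a log2 fold change of 4.85 (SE 0.0544) or a 28.9-fold difference with a 95% interval of 26.7 to 31.3. Ranked by log2 fold change, Sod2 was the 148th of the 12941 genes. The reads of Sod2 made up 0.00986% of a Vector library and 0.287% of a library labelled FTO on average.

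Sod1, the cytosolic enzyme, was at 132.3, 132.2 and 134 CPM in Vector and at 188, 193 and 187 CPM in the libraries labelled FTO. This was a 1.43-fold difference (95% interval 1.34 to 1.52), or 0.51 on the log2 scale (SE 0.0416), with a spread of under 2% of the mean in either group (SD of 0.742% and 1.85%). Sod3, the secreted enzyme, was at 129, 120.2 and 122 CPM in Vector and at 234, 249.7 and 209.9 CPM in the libraries labelled FTO. It was 1.87-fold higher (95% interval 1.71 to 2.04), which is 0.90 on the log2 scale (SE 0.0587), and its groups were also apart. Of the reads on the 3 dismutase genes, Sod2 took 26.2%, 28.1% and 29.2% in the Vector libraries and 87.3%, 86.8% and 87.5% in those labelled FTO. These shares are not corrected for transcript length and so describe the shift in reads, not the share of transcripts.

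Nfe2l2, which encodes NRF2 itself, was also higher. It was at 191, 190.4 and 183 CPM in Vector and at 261, 269.7 and 258 CPM in the libraries labelled FTO, a 1.40-fold difference (95% interval 1.31 to 1.48) with a log2 fold change of 0.48 (SE 0.0415). All libraries labelled FTO lay above the Vector libraries. NRF2 is controlled mainly through the stability of the protein, which was not measured here.

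**Figure D2:**
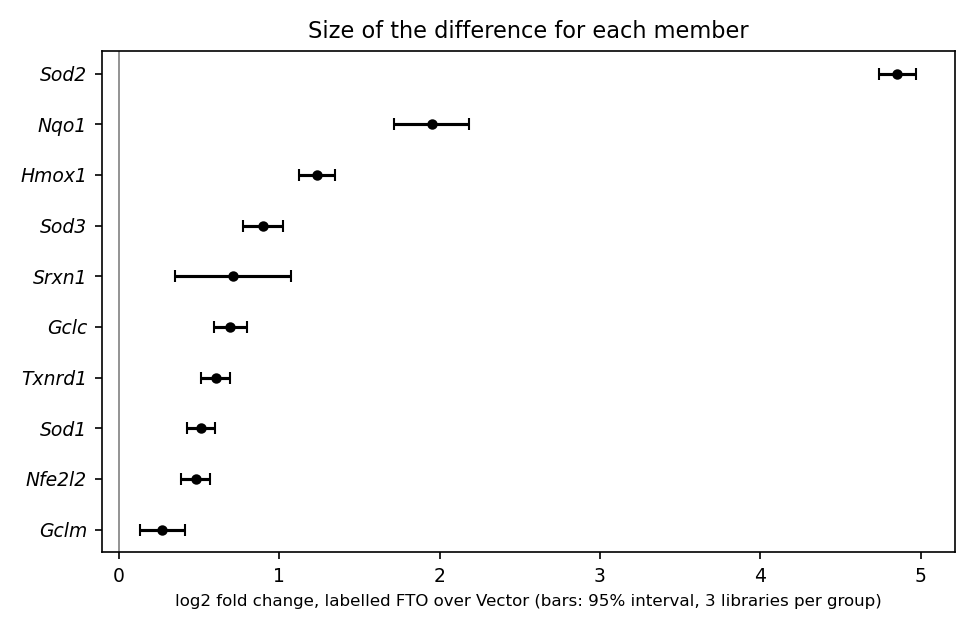
Difference of each gene on the log2 scale, labelled FTO over Vector, with its 95% interval from the edgeR fit (3 libraries per group). Sod2 stands at 4.85, Nqo1 follows at 1.95, and the other 8 lie between 0.27 and 1.24.

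The targets of NRF2 were uneven in size. Nqo1, a quinone reductase, showed the largest difference of the 6 and also an uneven group. It was at 32.8, 31.4 and 32.8 CPM in Vector and at 119.6, 153 and 104 CPM in the libraries labelled FTO. Replicate 2 labelled FTO was the highest, and the SD was 19.9% of the mean in that group against 2.44% in Vector, where genes with a mean of at least 500 counts had a median of 4.77% and 3.25%. The difference was 3.87-fold (95% interval 3.28 to 4.55), with a log2 fold change of 1.95 (SE 0.110).

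Hmox1 encodes heme oxygenase 1, which opens heme to biliverdin, iron and carbon monoxide. It was at 166, 158 and 160.0 CPM in Vector and at 387, 404 and 349 CPM in the libraries labelled FTO. The groups were well apart, with means of 161 ± 4.29 and 380.0 ± 28.2 CPM (SD, n = 3) and a log2 fold change of 1.24 (SE 0.0531), which is 2.36-fold with a 95% interval of 2.18 to 2.55. Hmox1 is also abundant in macrophages. Of their markers, 11 of 12 were called lower and Adgre1 was called higher (6.81 to 31.7 CPM). The part of macrophages in the Hmox1 values was not tested. In the RefSeq gene table, a long non-coding RNA overlaps Hmox1, and since the use of strand in counting is not stated, their reads may not be told apart.

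Glutathione synthesis begins with glutamate-cysteine ligase, made of a catalytic subunit (Gclc) and a modifier subunit (Gclm), and the subunits differed by unequal amounts. Gclc was at 79.5, 79.3 and 82.2 CPM in Vector and at 125, 132 and 133 CPM in the libraries labelled FTO, a 1.62-fold difference (95% interval 1.51 to 1.74). Gclm was at 33.1, 32.8 and 36.1 CPM in Vector and at 41.3, 41.5 and 40.7 CPM in the libraries labelled FTO, a 1.21-fold difference (95% interval 1.10 to 1.33). The log2 fold changes were 0.70 (SE 0.0477) and 0.27 (SE 0.0645). For Gclm the gap was narrow, with the lowest library labelled FTO only 1.13-fold above the highest Vector library.

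Txnrd1 and Srxn1 serve the thioredoxin system, the first by reducing thioredoxin and the second by repairing over-oxidized peroxiredoxins. Txnrd1 was at 191, 185 and 187 CPM in Vector and at 287, 291 and 278 CPM in the libraries labelled FTO, a 1.52-fold difference (95% interval 1.43 to 1.62) with a log2 fold change of 0.60 (SE 0.0410). Its span overlaps Eid3 and 3 long non-coding RNAs in the RefSeq gene table, so some of its reads could be shared. Srxn1 was the gene with the fewest reads, with 57, 79 and 65 counts in Vector and 135, 94 and 117 counts in the libraries labelled FTO. Its CPM was 4.17, 5.30 and 4.501 against 9.47, 7.10 and 6.53, so the groups were apart but spread widely, and the interval of the 1.64-fold difference was 1.27 to 2.11.

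Sod2 was then set against the 6 NRF2 targets within each library, as the log2 ratio of Sod2 CPM to the mean of the targets on the log2 scale. The ratio was 0.96, 1.03 and 1.12 in Vector and 4.96, 4.95 and 5.04 in the libraries labelled FTO. It thus differed by 3.94 on the log2 scale, or 15.4-fold, while the libraries of a group differed from each other by an SD of 0.0797 in Vector and 0.0489 in the libraries labelled FTO. The ratio compares genes of different length, so its level has no meaning of its own and its difference between the groups is what can be read. Against single targets, the difference ran from 2.92 for Nqo1 (7.56-fold) to 4.58 for Gclm (23.9-fold), with 3.62 for Hmox1, 4.14 for Srxn1, 4.16 for Gclc and 4.25 for Txnrd1. This contrast was part of the choice of the genes and is a description.

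**Figure D3:**
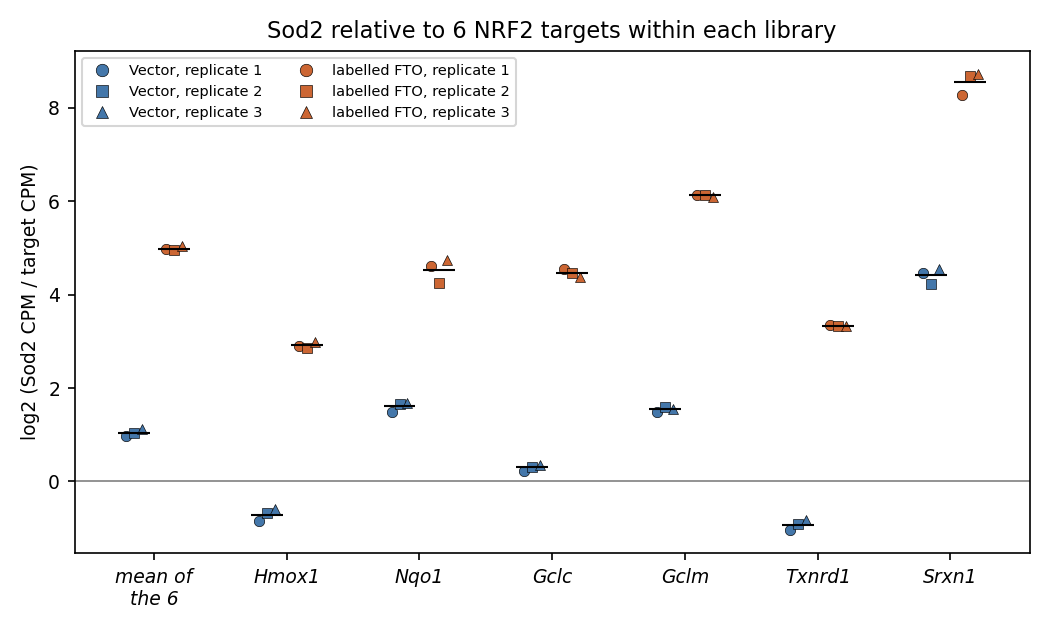
Log2 ratio of Sod2 CPM to the CPM of each of 6 NRF2 targets, and to their mean, in each library (symbols as replicates, horizontal lines as group means; genes differ in length, so only shifts between groups can be compared). In each column the 3 libraries labelled FTO lie above the 3 Vector libraries, with a shift of 3.94 for the mean of the 6.

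The genes whose pattern was most like that of Sod2 were sought among 10033 genes with a mean of at least 100 counts, as the smallest root mean square difference in log2 CPM centred on Vector over the 6 libraries. They were Ackr3, a scavenging chemokine receptor (0.0871), RT1-S3, a class I MHC gene of a multigene family whose counts are uncertain (0.113), Bst2, an interferon-induced restriction factor (0.119), Dhx58, a cytosolic RNA sensor (0.121), and Serping1, the C1 inhibitor (0.123). Serping1 was at 46.6 ± 2.25 CPM in Vector and 1473 ± 72.7 CPM in the libraries labelled FTO (SD, n = 3). The genes most like Hmox1 were Cd44, Cyba, Rnf114, Ddit3 and Nppa, with differences of 0.0261 to 0.0438. Among those most like Nqo1 were Cdc42ep5, LOC24906, Ifi35 and Sp110, with differences of 0.113 to 0.128. With 6 libraries in 2 groups, likeness mainly reflects the size of the difference between the groups.

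Other known NRF2 targets, none of them among the members, were then tested, and they moved in both directions. This list and those that follow were chosen with earlier results of these data known, so their counts are not independent support. Of 30 genes listed, 25 could be tested, of which 13 were called higher, 4 lower and 8 not called (edgeR, adjusted p under 0.05), with a median log2 fold change of 0.22 against 0.00 for all genes tested. That is 52.0% called higher and 16.0% lower, where 33.2% and 32.8% of all genes tested were called in these directions, and the counts of the lists that follow are to be read against the same shares. The largest increase was that of Mgst1, a membrane glutathione transferase, from 30.7 ± 0.598 to 451 ± 20.5 CPM (SD, n = 3), or 3.88 on the log2 scale (SE 0.0529, adjusted p = 1.6e-17 by edgeR). Ugdh, which makes UDP-glucuronate for detoxification and for hyaluronan, rose by 1.86, Txn1 (thioredoxin) by 0.999 and Prdx6 (a peroxiredoxin) by 0.84 on the log2 scale. Slc7a11, the cystine importer and a widely used readout of NRF2, fell instead from 83.1 ± 5.84 to 49.0 ± 1.84 CPM (-0.76 on the log2 scale, adjusted p = 3.3e-08 by edgeR). Me1 (malic enzyme, a source of NADPH) changed by -0.81, Osgin1 by -0.81 and Ephx1 (microsomal epoxide hydrolase) by -0.37. The pentose phosphate genes Taldo1 (0.13, adjusted p = 0.083) and Tkt (0.11, adjusted p = 0.070) did not pass in the edgeR test. Fth1, a target that nearly every cell expresses, had 0 counts in each library, so genes with near-identical copies may be lost in the counting. Pgd is not analysed here.

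Among the genes that control NRF2, 13 of 14 could be tested, with 6 called higher, 2 lower and 5 not called (46.2% higher and 15.4% lower, against 33.2% and 32.8% of all genes) and a median of 0.10. Maff, a small MAF partner that can also repress, rose from 24.8 ± 0.156 to 61.5 ± 2.43 CPM (1.31 on the log2 scale, adjusted p = 5.2e-11 in the edgeR test). Btrc, a part of the ubiquitin ligase that degrades NRF2 independently of KEAP1, rose by 1.21, and Bach1, the repressor that competes at AREs and holds down Hmox1, rose by 1.19. Keap1 rose by 0.26 and Rbx1, a subunit of its ligase, by 0.42, whereas Cul3 was at -0.05, Mafg at -0.16 and Mafk at -0.01 and did not pass. The 2 called lower were Nfe2l3, with a mean near 1 CPM in Vector (1.03 ± 0.136), and Palb2 (-0.34, adjusted p = 0.0467).

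The glutathione genes, which share 4 genes with the list of NRF2 targets, were called higher in 14 of 25 tested, lower in 6 and not called in 5 (56.0% and 24.0% called, against 33.2% and 32.8% of all genes), with a median of 0.33. Glrx, the cytosolic glutaredoxin, rose from 16.6 ± 2.55 to 114 ± 14.96 CPM (2.78, adjusted p = 2.8e-12 in the edgeR test), Gpx3, the secreted glutathione peroxidase, from 259 ± 4.87 to 840.4 ± 24.5 CPM (1.70), and Mgst2 by 1.67. Gss, the last enzyme of glutathione synthesis, rose by 0.78 and Gsr, which reduces oxidized glutathione, by 0.21. The breakdown genes Ggct (0.71) and Oplah (0.58) were called higher. Slc3a2, the partner chain of Slc7a11, changed by -0.85, and Chac1, which also degrades glutathione, fell from 30.4 ± 1.18 to 4.26 ± 0.995 CPM (-2.86, adjusted p = 2.5e-11 in the edgeR test). Ggt7, of the gamma-glutamyltransferase family, was at -0.42, and Gpx1, the cytosolic peroxidase, at -0.22, both called lower.

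**Figure D4:**
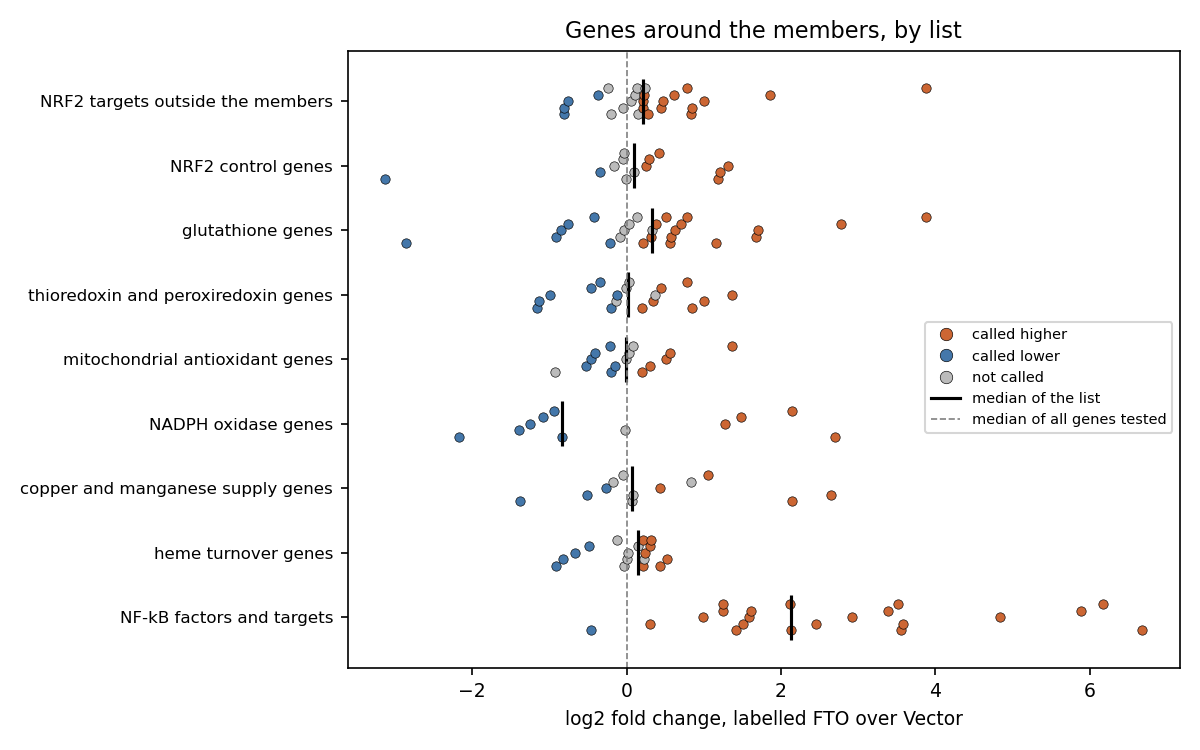
Log2 fold change of every tested gene of 9 lists around the members, 1 point per gene, coloured by its call by edgeR (adjusted p under 0.05); short vertical lines are list medians and the dashed line is the median of all genes tested. The NF-κB list has its median at 2.13, while the median of the mitochondrial antioxidant list is at 0.00.

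Of 18 thioredoxin and peroxiredoxin genes, 7 were called higher, 7 lower and 4 not called, with a median of 0.02. These shares, 38.9% each way, were near the 33.2% and 32.8% of all genes. Prdx5, a peroxiredoxin of mitochondria and peroxisomes, rose from 147.5 ± 6.72 to 379 ± 36.6 CPM (1.36, adjusted p = 2.7e-11 in the edgeR test), and Txnip, the inhibitor of thioredoxin, rose by 0.78. The sestrins Sesn2 and Sesn3, stress-induced proteins, changed by -1.16 and -1.13, and Msrb3, a methionine sulfoxide reductase, by -0.99. A further list was drawn up for antioxidant defence in mitochondria, the place of SOD2. It also holds Gpx1, named above as cytosolic, and the transcription regulators Foxo3 and Ppargc1a. Of its 15 genes tested, 5 were called higher, 6 lower and 4 not called (33.3% and 40.0%, near the 33.2% and 32.8% of all genes). The log2 fold changes ran from -0.93 (Ppargc1a, not called) to 1.36 (Prdx5). Prdx3, the peroxiredoxin of the mitochondrial matrix, was at 146 ± 3.97 and 126 ± 2.41 CPM (-0.21, adjusted p = 7.4e-04), Txnrd2 at -0.46, Idh2, a source of mitochondrial NADPH, at -0.41, and Ucp2 at -0.52. Gstk1 (0.56), Glrx5 (0.50) and Foxo3 (0.30) were called higher.

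On the side of oxidant production, NADPH oxidase genes were called higher in 4 of 11 tested and lower in 6 (36.4% and 54.5%, against 33.2% and 32.8% of all genes), with a median of -0.84. Nox4, the main oxidase of fibroblasts, fell from 13.7 ± 1.89 to 3.10 ± 0.899 CPM (-2.17, adjusted p = 4.1e-08 in the edgeR test). The phagocyte genes Cybb (-0.84), Ncf1 (-1.39), Ncf4 (-1.26) and Rac2 (-0.95) were lower too, next to the lower macrophage markers given above, whose part was not tested. Cyba, the membrane subunit shared by several oxidases, rose by 1.28 and Duox1 by 2.14. Nox1 (2.70) and Duoxa1 (1.48) were also called higher, at low means of 13.3 and 47 counts.

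For the metals that the dismutases need, 12 genes of copper and manganese supply were tested, with 4 called higher, 3 lower and 5 not called (33.3% and 25.0%, against 33.2% and 32.8% of all genes). The importers Slc39a14 and Slc39a8, which carry manganese as well as zinc and iron, rose from 116 ± 4.54 to 727 ± 40.1 CPM (2.65, adjusted p = 8.2e-16 in the edgeR test) and by 1.06. Slc11a2, a divalent metal importer, rose by 2.15, and Slc40a1, the iron exporter, changed by -1.38. Ccs, the chaperone that loads copper into SOD1, was at 0.08 and Atp7a, the pump that supplies copper to secreted enzymes such as SOD3, at -0.18, and neither passed. The copper importer Slc31a1 changed by -0.51 and its relative Slc31a2 by -0.27, while Cox17, which carries copper to cytochrome oxidase, rose by 0.43. Heme turnover genes, the setting of Hmox1, were called higher in 7 of 17, lower in 4 and not called in 6 (41.2% and 23.5%, against 33.2% and 32.8% of all genes), with log2 fold changes from -0.91 to 0.52. Hmox2, the constitutive oxygenase, was at 0.02 (adjusted p = 0.85 in the edgeR test), and Blvra, which reduces biliverdin, rose by 0.31. Pgrmc1 (0.52), a heme-binding protein, and the synthesis genes Urod (0.44) and Alas1 (0.30) rose, while Cpox (-0.49), Uros (-0.67) and Flvcr2 (-0.91) fell.

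NF-κB factors and targets were higher in 20 of 21 cases and lower in 1 (Rel, -0.46, adjusted p = 0.0168 in the edgeR test), with a median of 2.13. These shares were 95.2% and 4.76%, against 33.2% and 32.8% of all genes. Earlier results on these libraries had already shown NF-κB genes to be higher, so this is not independent support. The largest differences were those of the chemokines Ccl20 (6.67) and Cxcl1 (6.17), the adhesion molecule Vcam1 (5.88) and the cytokine Il6 (4.84), the last close to Sod2 in size. Nfkbia, the inhibitor that NF-κB induces, rose from 38.1 ± 1.55 to 208.5 ± 14.9 CPM (2.45), and Tnfaip3 by 3.51. Of the same list, 18 passed the threshold of the study in the higher direction (85.7%), and of the 25 NRF2 targets outside the members 2 did (8.0%), where 10.4% of all genes tested passed. Of the 6 NRF2 target members, which were chosen by this contrast, 2 passed as well (33.3%). These counts describe the lists and were not compared by a test. The cause of the Sod2 difference was not tested.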

How the data were processed

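The deposited values are unnormalized read counts, given by the authors as integers for every symbol in each library. Per the labels, libraries were made from total RNA with a NEBNext kit; the submitters' processing notes name Trimmomatic and rn6. The aligner, counting program, annotation and strand setting are not given in the sources used here.

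Genes were kept with filterByExpr (minimum count 10), which left 12941 genes, scaled by TMM (factors 0.995 to 1.005) and tested with the quasi-likelihood method in edgeR 4.0.16 under R 4.3.3 (two-sided, no covariate), with Benjamini-Hochberg adjustment over all genes tested. CPM is TMM-normalized. SEs were derived from the F statistics. The members and gene lists were chosen with earlier results of these data known, and the lists share genes. Named genes were the members, Fto, up to 4 called genes per list and direction with a mean of at least 50 counts, the genes most like a member, and other list genes for their role. Some genes that this rule names are not reported here. Pairs of replicates differed beyond sampling noise (chi-square per degree of freedom 1.56 to 8.02). A floor of 3 counts was worth 0.168 to 0.227 CPM. Intervals cover counting error and library spread only, as no molecular identifiers were used. Levels per transcript length were not computed, since the gene table used here gives gene spans only. The fit was also run on simulated counts in which only a small part of the genes was changed, unlike these data. Nothing is read from that run. Alternatives were DESeq2 1.42.0, limma-voom (limma 3.58.1), other scalings and filters, a replicate block and single-library omission.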

Additional observations from a re-analysis of the deposited data

How the results depend on the processing

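All 10 members kept their direction under the 13 alternatives. The log2 fold change of Sod2 ran from 4.80 to 4.90, of Nqo1 from 1.79 to 2.07, of Hmox1 from 1.19 to 1.29, of Srxn1 from 0.53 to 0.83 and of Gclm from 0.25 to 0.32. The Sod2 to NRF2 target difference ran from 3.91 to 3.99 when single libraries were left out. Fto stayed between 0.0508 and 0.0780 on the log2 scale, with adjusted p-values of 0.182 to 0.45. The number of NRF2 control genes called lower (2) was 1 with DESeq2, with library size alone and with a filter at a mean of 10 counts, and ran from 1 (without Vector replicate 2) to 4 (without FTO replicate 3) when single libraries were left out. The single NF-κB gene called lower was lost with DESeq2 (0), and that count ran from 0 (without Vector replicate 2 or FTO replicate 1) to 1 when single libraries were left out. The cause was not tested. The other counts of the 9 gene lists stayed within 1.5 times, and the marker lists were not recomputed. Whether same-numbered replicates were paired is not stated in the labels. Deviations from the group means correlated at 0.00531, -0.114 and 0.0633 for same-numbered libraries. These values lie within the -0.173 to 0.164 of differently numbered libraries, so they cannot decide whether the numbers mark pairs. With the replicate block, 4218 genes were called higher and 4181 lower, against 4292 and 4239. Depth limits Srxn1 most, with a mean of 91.2 counts.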

Other observations

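The libraries labelled FTO took a common order in the members. Replicate 3 was the lowest of its group in 9 of 10 members (the exception was Gclc), and replicate 2 was the highest in 7, while replicate 3 was the lowest in 37.1% and replicate 2 the highest in 37.5% of all genes tested. The order was not tested.

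Several abundant antioxidant or iron genes had almost no counts. Fth1 had 0 counts in each of the 6 libraries, Gpx4 0 in each Vector library and 3, 1 and 5 in those labelled FTO, and Cbr1 0, 1 and 1 against 2, 5 and 3. Ftl1 had 114 to 180 counts per library. Whether reads of these genes were assigned to near-identical copies was not tested.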
